A study of Mus musculus with 8 samples.

Results

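The MHC class II antigen presentation genes were taken as 7 of the 46517 genes counted in single cells of the mouse liver, and were chosen by name. They were *H2-Aa*, *H2-Ab1*, *H2-Eb1*, *H2-DMa*, *H2-DMb1*, *Cd74* and *Ciita*, which the count table writes as H2.Aa, H2.Ab1, H2.Eb1, H2.DMa, H2.DMb1, *Cd74* and *Ciita*, and all 7 were found. Their levels are described across 3491 cells of 4 classes, which were 651 immune, 1106 endothelial, 1337 mesenchymal and 397 parenchymal cells. The livers were those of male and female adult mice, aged 8 weeks to 1 year. The authors describe the mice as C57Bl6 and list C57BL6/J beside the reporter lines. Several lines carried a fluorescent reporter (Pdgfrb-GFP, Pdgfra-H2bGFP, Acta2-GFP, Cspg4-dsRED or Cldn5-GFP) that marks a mesenchymal or endothelial population, and no sample label ties a cell to a mouse or a line. A few plate names hold letters such as Acta2 or EC, which the sources used here do not explain and which were not used. The cells of each class and sex form 1 sample, here called a pool, so each class has a male and a female pool and nothing was treated. Livers were not perfused, so blood cells could be among the immune cells.

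MHC class II molecules present peptides from ingested proteins to CD4+ T cells, and are known mainly from B cells, dendritic cells and macrophages. An α and a β chain form each molecule, the invariant chain occupies its groove until it reaches the endosome, and H2-DM exchanges the remaining invariant chain peptide for antigen. The coactivator CIITA is the main switch of these genes, and in the liver Kupffer cells, the resident macrophages, are the most numerous cells known to carry the molecules.

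*H2-Aa* and *H2-Ab1* encode the α and β chain of I-A, *H2-Eb1* the β chain of I-E, *H2-DMa* and *H2-DMb1* the H2-DM dimer, *Cd74* the invariant chain and *Ciita* the coactivator. In GRCm38, 5 of the genes lie in the MHC locus of chromosome 17. *H2-DMa* is at chr17:34119541-34139101, *H2-DMb1* at chr17:34153072-34160230, *H2-Ab1* at chr17:34257689-34269419 and *H2-Eb1* at chr17:34305867-34316674, all on the plus strand, and *H2-Aa* is at chr17:34282744-34287823 on the minus strand. *Cd74* (chr18:60803848-60812652) and *Ciita* (chr16:10480059-10528418) lie elsewhere, on the plus strand. The α chain gene of I-E, *H2-Ea*, had a count in 1 of 651 immune cells.

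Counts of reads per gene were summed over the cells of a class or cluster within each pool, and levels are given in CPM, counts scaled in the usual way to the total of the sum. Total counts per cell ran from 47063 to 1128421, with a median of 228708. The 22 plates each held cells of 1 sex, so the sexes were not compared. Ranges and tests use sums over at least 5 cells. Per-cell shares and sums over both pools are given where a pool is not named.

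Immune cells had far higher levels of all 7 genes than the other classes. The male and female immune pools had 2220 and 1736 CPM of *H2-Aa*, against 25.8 and 55.7 CPM in endothelial, 15.5 and 26.3 CPM in mesenchymal and 173 and 80.2 CPM in parenchymal cells. *H2-Ab1* was at 2169 and 2032 CPM in the immune pools, 33.1 and 90.2 CPM in endothelial, 27.1 and 21.1 CPM in mesenchymal and 246 and 213 CPM in parenchymal cells. *H2-Eb1* was at 1992 and 1445 CPM in immune cells, 24.8 and 47.3 CPM in endothelial, 17.3 and 17.4 CPM in mesenchymal and 162 and 128 CPM in parenchymal cells. In these 3 chain genes the immune pools lay above all the others, and the parenchymal pools came next. The male parenchymal level rested on 1 plate of cholangiocytes, and without that plate *H2-Aa* was at 28.3, *H2-Ab1* at 63.1 and *H2-Eb1* at 37.7 CPM in that pool. *H2-DMa* was at 688 and 603 CPM in immune cells, and at 4.89 and 13.7 CPM in endothelial, 5.77 and 2.98 CPM in mesenchymal and 35.3 and 22.7 CPM in parenchymal cells. *H2-DMb1* was at 318 and 409 CPM in immune cells, and at 2.39 and 6.88 CPM in endothelial, 5.31 and 5.39 CPM in mesenchymal and 48.9 and 59.7 CPM in parenchymal cells. Both subunits of H2-DM thus had the same order, with no overlap between immune and other pools, but without that plate the male parenchymal pool had 3.31 CPM of *H2-DMa* and 2.40 CPM of *H2-DMb1*.

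The immune pools had 3915 (male) and 2695 CPM (female) of *Cd74*. It was at 74.5 and 98.7 CPM in endothelial, 35.0 and 39.8 CPM in mesenchymal and 415 and 698 CPM in parenchymal cells, where the male value was 98.7 CPM without that plate. Per kilobase of merged exon, and over both pools, *Cd74* had the highest level of the 7 genes in every class. In immune cells it was at 1872 CPM on this scale, followed by *H2-Eb1* at 846, *H2-Ab1* at 811, *H2-Aa* at 504, *H2-DMb1* at 223, *H2-DMa* at 183.99 and *Ciita* at 9.60 CPM. In the immune class *Ciita* was the gene whose pools differed most, at 164 (male) and 49.6 CPM (female), against 2.30 and 8.28 CPM in endothelial, 1.97 and 3.65 CPM in mesenchymal and 19.2 and 7.81 CPM in parenchymal cells, the male value being 0.101 CPM without that plate. The plot of the 7 genes by class and pool shows these levels.

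**Figure D1:**
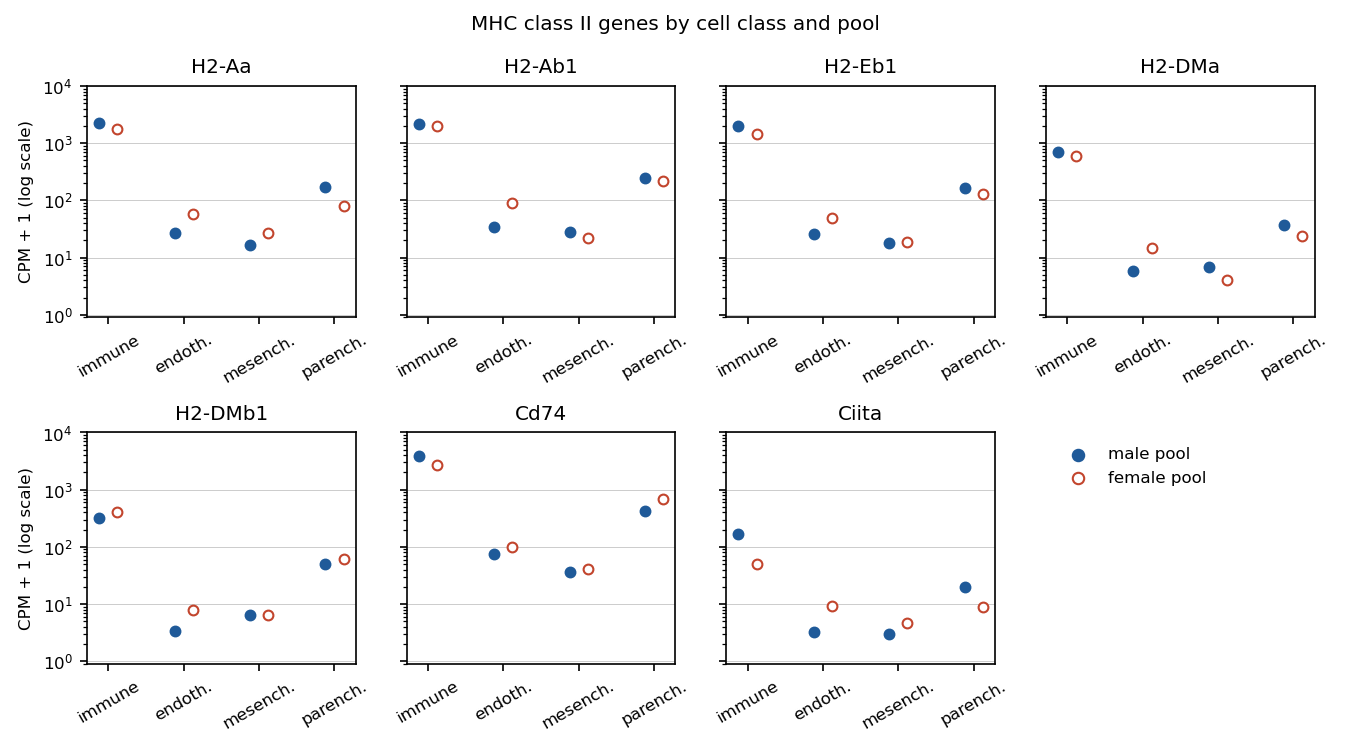
Level of each MHC class II gene (CPM + 1, log scale) in the 4 cell classes, with 1 point per pool (filled, male; open, female). Both immune pools lie above every other pool for all 7 genes. The parenchymal pools lie next for 6 of them, with *Cd74* at 415 and 698 CPM (male, 98.7 CPM without 1 plate), while for *Ciita* the female parenchymal and endothelial pools are close, at 7.81 and 8.28 CPM.

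All 7 genes were called higher in immune cells than in the mean of the other 3 classes. A gene was called where edgeR's quasi-likelihood test gave an adjusted p below 0.05 and the log2 fold change was 1 or more. The log2 fold change was 5.48 for *H2-Aa* (SE 0.43, adjusted p = 3.02e-04), 5.01 for *H2-Ab1* (SE 0.39, adjusted p = 2.99e-04) and 5.36 for *H2-Eb1* (SE 0.34, adjusted p = 1.76e-04) by that test. It was 6.02 for *H2-DMa* (SE 0.48) and 5.15 for *H2-DMb1* (SE 0.41), both at an adjusted p of 3.23e-04, and 4.88 for *Cd74* (SE 0.29, adjusted p = 1.56e-04). *Ciita* had a log2 fold change of 4.29 (SE 0.65, adjusted p = 0.00438 from edgeR). Of the 24046 genes tested, 7.92% were called higher in immune cells, and the median log2 fold change was 0.09 over all genes and 5.15 over the 7. Without the male immune pool, which holds all 57 B cells, *Ciita* was at a log2 fold change of 3.15 with an adjusted p of 0.0548 in edgeR and was not called. The pools are 2 per class, and no label says how many mice stand behind a pool, so the p values measure the spread between these pools only.

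Most immune cells counted most of the genes. *Cd74* had at least 1 count in 648 of 651 immune cells (99.5%, exact binomial 95% interval 98.7% to 99.9%), *H2-Aa* and *H2-Ab1* each in 646, *H2-Eb1* in 645, *H2-DMa* in 622 and *H2-DMb1* in 575. *Ciita* was counted in 217 immune cells (33.3%, interval 29.7% to 37.1%). At least 5 of the 7 genes were counted in 97.4% of immune cells and all 7 in 30.3%, against 18.3% and 2.35% of endothelial cells, 7.11% and 0.224% of mesenchymal cells and 38.0% and 1.76% of parenchymal cells. Cells that share plates and mice are not replicates, so these intervals cover counting error only. Reads also carry no molecular identifiers.

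The shares outside the immune class moved with the plate. On the 10 plates with at most 4 immune cells, 16.7% of 798 endothelial cells had a count of *Cd74*, and *Cd74* was at 45.7 CPM. On the 8 plates with more immune cells the share was 86.0% of 308 endothelial cells, and *Cd74* was at 216 CPM. *Clec4f*, a gene particular to Kupffer cells, was counted in 1.75% and 72.4% of the same cells and was at 4.60 and 150 CPM. In mesenchymal cells *Cd74* was counted in 27.1% of 1230 cells on plates with few immune cells and in 82.2% of 107 cells on the others. The plates also differ in the clusters they hold. The endothelial share of *Cd74* over all plates (36.0%, median depth 230826 counts) was within the range of the hepatocyte clusters #p4 and #p5 (47.5% and 35.1%, median depths 204679 and 149112 counts), so single counts are not read as expression here. All 7 genes remained called in immune cells when the other classes were limited to plates with at most 4 immune cells, and also when only their cells without any Kupffer or B cell marker count were used, both settings chosen after the values were seen.

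The stretches before the start sites of these genes are shown because the 7 genes were higher together, and because the promoters of MHC class II genes are known for an X box, bound by the RFX complex, and a Y box, bound by NF-Y, to which CIITA is recruited. Of the 7 genes, 4 had an entry in the table of RefSeq promoters (GRCm38.p6), and those of *H2-Aa* and *H2-Eb1* are printed with that of *H2-DMb2*, a second DM β chain gene. Capitals mark matches to GATTGG or CCAATC (Y box), to AACNGATG or CATCNGTT (X box-like) and to TGACGTCA (CRE-like). *H2-Aa* is read from chr17:34287824-34288073 on the minus strand, *H2-Eb1* from chr17:34305617-34305866 and *H2-DMb2* from chr17:34144999-34145235 on the plus strand, each 5′ to 3′.
H2-Aa: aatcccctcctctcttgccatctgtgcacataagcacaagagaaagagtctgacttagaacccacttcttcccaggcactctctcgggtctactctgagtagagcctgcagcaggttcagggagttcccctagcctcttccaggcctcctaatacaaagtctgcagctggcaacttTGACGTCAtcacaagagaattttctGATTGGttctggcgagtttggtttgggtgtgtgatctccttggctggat
H2-Eb1: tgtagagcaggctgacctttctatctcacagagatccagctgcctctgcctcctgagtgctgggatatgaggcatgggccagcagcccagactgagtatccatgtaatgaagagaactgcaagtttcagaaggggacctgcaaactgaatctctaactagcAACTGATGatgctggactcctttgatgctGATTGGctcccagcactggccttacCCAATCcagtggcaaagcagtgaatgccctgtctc
H2-DMb2: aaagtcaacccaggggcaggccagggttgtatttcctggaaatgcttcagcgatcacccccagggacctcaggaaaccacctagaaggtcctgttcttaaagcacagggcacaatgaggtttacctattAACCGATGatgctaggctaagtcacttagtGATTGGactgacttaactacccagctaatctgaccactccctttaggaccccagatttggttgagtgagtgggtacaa

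Positions are counted from the RefSeq start. In *H2-Eb1* an X box-like match (AACTGATG) began 89 bases before the start and a Y box match (GATTGG) 60 bases before it, with another Y box match on the opposite strand at 35 bases. *H2-DMb2* had AACCGATG at 121 and GATTGG at 91 bases before its RefSeq start, which lies inside the gene as GENCODE draws it. *H2-DMa* had 2 entries, which also lie inside the GENCODE gene, with no match in one and GATTGG at 199 bases in the other. *H2-DMb1* had AACTGATG at 92 and GATTGG at 62 bases before its RefSeq start, both within an annotated untranslated region, and its stretch is not printed. *H2-Aa* had GATTGG at 49 and the CRE-like letters at 74 bases, and no X box-like letters in this window. Among 32851 promoter entries of 250 bases, 14.56% held a Y box match, 1.985% an X box-like match, 1.546% the CRE-like letters and 0.2496% both a Y box and an X box-like match on any strand. A match is a match of letters only.

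Endothelial cells did not pass the test for any of the 7 genes against the mean of mesenchymal and parenchymal cells, with 0 of 7 called and 8.75% of all genes called in either direction. The member nearest to the threshold was *H2-DMb1*, with a log2 fold change of -1.91 (SE 0.51, adjusted p = 0.0564 from edgeR), and it alone had an unadjusted p under 0.05 in that test. It was called lower in endothelial cells with the pool as a block (log2 fold change -2.03, SE 0.48, adjusted p = 0.0465 from edgeR) and by DESeq2. The other 6 genes had log2 fold changes from -0.77 (*Cd74*, SE 0.34) to -0.26 (*Ciita*, SE 0.76), none with an unadjusted p under 0.05 in edgeR. With DESeq2 *Cd74* also had an unadjusted p under 0.05 and was not called. The parenchymal side of this contrast holds the cholangiocytes described further on. Without their main plate, a setting chosen after the values were seen, 0 of 7 were called and 4 of the 7 log2 fold changes turned positive, up to 0.88 (*Ciita*, SE 1.22).

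Of 46 companion genes tested in the same contrast 4 were called, or 8.7%, close to the share of all genes. *Lgmn*, which encodes the endosomal protease legumain, was higher at 823 and 616 CPM (log2 fold change 2.34, SE 0.40), and *Cd274*, which encodes PD-L1, was higher at 26.4 and 44.0 CPM (2.14, SE 0.50). *Ifi30*, a lysosomal thiol reductase of antigen processing, was lower at 10.05 and 9.03 CPM (-2.96, SE 0.47). *Cd44*, which encodes a partner of CD74 in MIF signalling, was lower at 1.62 and 2.04 CPM (-4.72, SE 0.71). These 4 genes had adjusted p values of 0.0117, 0.0365, 0.00896 and 0.00749 in edgeR.

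Companion genes were counted by list, beside the 7.92% of all genes called higher. In immune cells 4 of 4 tested other class II genes, 8 of 9 antigen processing genes, 6 of 7 costimulatory and coinhibitory genes, 3 of 4 CD74 ligand and partner genes and 3 of 10 class I genes were called higher, and none lower. Differences between lists were not tested. *Ctss*, which encodes cathepsin S, the protease known to trim the invariant chain, was at 2223 and 2108 CPM where the other classes averaged 9.77 and 19.4 CPM. *Marchf1*, whose product marks class II molecules for degradation, was at 188 and 138 CPM against 0.271 and 0.49996 CPM. Of the genes for class II transcription, *Spi1* (log2 fold change 7.93), *Irf4* (6.01) and *Irf8* (4.52) were called higher, whereas those of the RFX complex (*Rfx5*, *Rfxap* and *Rfxank*) and of NF-Y (*Nfya*, *Nfyb* and *Nfyc*) were not called. Of class I presentation, *Psmb9* (log2 fold change 2.06), *Tap1* (1.92) and *Psmb8* (1.68) were called, with smaller changes than any of the 7 class II genes.

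Among the 11 immune clusters, B cells (#i6c) had the highest level of every chain gene, of *Cd74* and of *Ciita* over both pools. The B cells were 57 cells, all male, and had 3252 CPM of *Cd79a* and 1220 CPM of *Ms4a1*. The 5 Kupffer clusters (#i1c, i3c, i8c, i10c and i11c, 469 cells) had *Clec4f* at 5295 CPM over all cells. Cluster #i2c (41 cells) had *Cx3cr1* at 1181 and *C1qa* at 1547 CPM. Cluster #i7c (16 cells), labelled as monocytes in the deposited annotation, had *Siglech* at 4157, *Ccr9* at 1031 and *Cx3cr1* at 1.08 CPM, and is therefore called by its number here. Since the authors derived the clusters from these same profiles, a gene that helped to define a cluster differs partly by construction.

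*H2-Aa* was at 3756 CPM in B cells, 2618 CPM in the male pool of #i2c, 1888 CPM in #i7c and 901 CPM in the male pool of #i4c. In the Kupffer clusters it ran from 642 CPM (#i3c, 9 male cells) to 2425 CPM (#i8c, female). *H2-Ab1* was at 3503 CPM in B cells, 2831 CPM in #i2c, 1568 CPM in #i7c and 1008 CPM in #i4c, and from 983 to 2870 CPM in the Kupffer clusters. *H2-Eb1* was at 3482 CPM in B cells, 2725 CPM in #i2c, 1129 CPM in #i7c and 728 CPM in #i4c, and from 630 to 1814 CPM in the Kupffer clusters. B cells thus lay above the Kupffer range for the 3 chain genes, #i2c lay within it for *H2-Ab1* and above it for the others, and #i4c, a small cluster with the Kupffer marker *Clec4f* at 3916 CPM, lay within it for all 3.

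*Cd74* was at 5776 CPM in B cells, 4252 CPM in #i2c, 2779 CPM in #i7c, 2364 CPM in #i4c and from 1543 to 4880 CPM in the Kupffer clusters. *H2-DMa* was at 693 CPM in B cells, 963 CPM in #i2c, 632 CPM in #i7c, 578 CPM in #i4c and from 360.5 to 683 CPM in the Kupffer clusters. *Ciita* was at 482 CPM in B cells, 217 CPM in #i7c, 158 CPM in #i2c, 12.5 CPM in #i4c and from 1.01 to 80.9 CPM in the Kupffer clusters. It was counted in 57.9% of B cells (interval 44.1% to 70.9%), 8 of 16 cells of #i7c and 20.7% to 41.8% of cells in the Kupffer clusters. From the lowest to the highest of these sums *Ciita* ran more widely than *Cd74* and *H2-DMa*. Its low end, in #i3c, came from 1 of 9 male cells, and the spreads were not compared by a test. Within a cluster *Ciita* was also uneven, with a median of 6.38 CPM and a highest cell at 4658 CPM among B cells. Among Kupffer cells its median was 0 and its highest cell was at 1301 CPM.

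**Figure D2:**
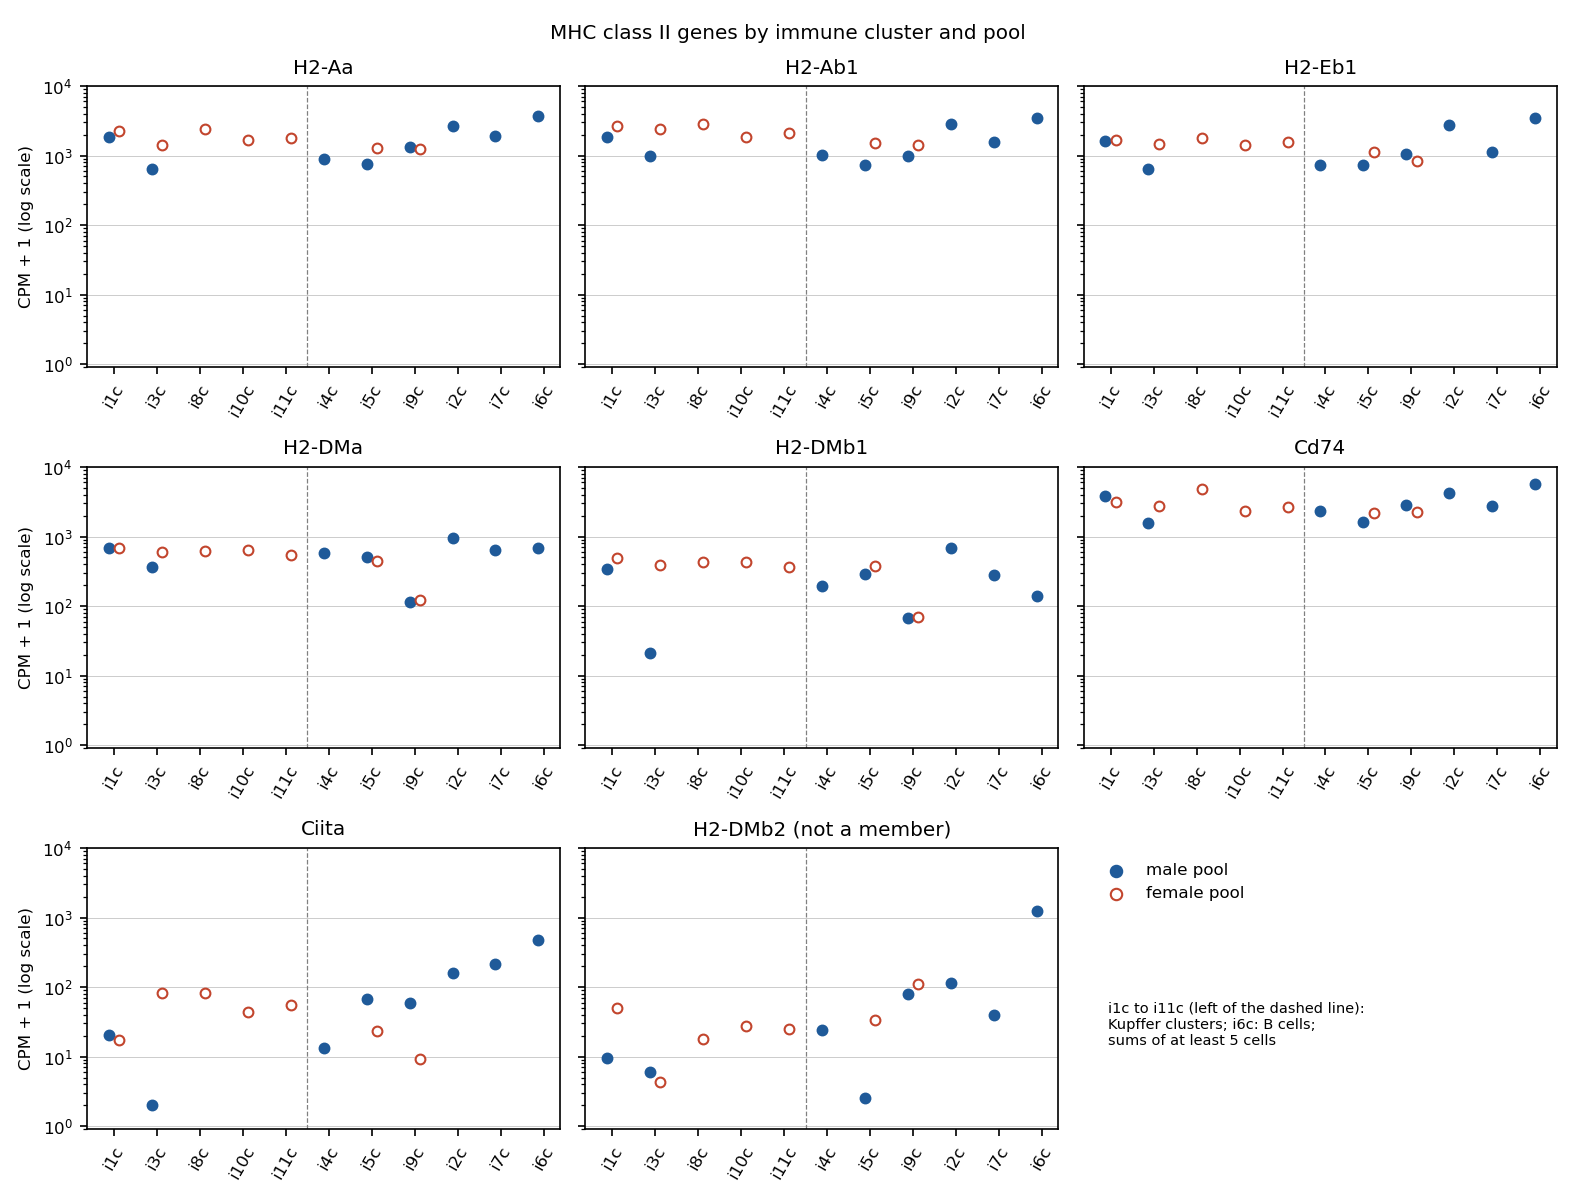
Level of each MHC class II gene and of *H2-DMb2* (CPM + 1, log scale) in the 11 immune clusters, with 1 point per pool of at least 5 cells (filled, male; open, female). B cells (#i6c) have *Ciita* at 482 and *H2-DMb2* at 1232 CPM, while their *H2-DMb1*, at 139 CPM, lies below most Kupffer clusters.

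None of these differences passed the test. Of 28 contrasts of a gene in #i2c, #i4c, #i6c or #i7c with the Kupffer clusters, 0 were called by edgeR and 0 by DESeq2, with 4 and 1 at an unadjusted p under 0.05. Each of the 4 clusters had a sum in the male pool alone, and 4 residual degrees of freedom were left. The nearest was *Cd74* in B cells (log2 fold change 0.86, SE 0.31, adjusted p = 0.0961 from edgeR). *H2-Eb1* was at 1.15 (SE 0.47), *H2-Aa* at 1.02 (SE 0.43), *H2-Ab1* at 0.62 (SE 0.42) and *Ciita* at 3.40 (SE 1.76) on the log2 scale in the same contrast. Over all genes 4.29% were called in either direction in B cells, 2.34% in #i2c, 3.14% in #i7c and 0.171% in #i4c.

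Sums per plate gave another answer for B cells. With plates as units, *H2-Aa* (log2 fold change 1.35, SE 0.30, adjusted p = 0.00129), *H2-Eb1* (1.36, SE 0.33, adjusted p = 0.00299), *Cd74* (1.18, SE 0.26, adjusted p = 0.00115) and *Ciita* (3.65, SE 1.01, adjusted p = 0.0097) were called higher by edgeR. With #i5c and #i9c counted as Kupffer cells, *H2-Aa*, *H2-Eb1* and *Cd74* were called. Plates of one pool may share mice. On the 3 plates with 34, 15 and 6 B cells, *H2-Aa* was at 3454, 4176 and 6816 CPM and *Cd74* at 5307, 6312 and 11356 CPM, whereas Kupffer cells on 6 plates had *H2-Aa* from 868 to 2527 CPM and *Cd74* from 2401 to 5311 CPM. For *H2-Aa* the plates of the 2 populations did not overlap, and for *Cd74* they did.

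Of the 2 genes for the β chain of H2-DM, *H2-DMb2* was called higher in B cells than in Kupffer cells without the block and *H2-DMb1* was not called. *H2-DMb1* was at 139 CPM in B cells and from 20.2 to 486 CPM in the Kupffer clusters, with a log2 fold change of -1.45 (SE 1.37) and an adjusted p of 0.99993 in edgeR. *H2-DMb2*, which encodes a second β chain, was at 1232 CPM in B cells against 3.30 to 49.6 CPM in the 7 Kupffer sums of both pools (log2 fold change 6.09, SE 1.56, adjusted p = 0.00491 from edgeR). With the pool as a block it was at 7.29 (SE 2.14, adjusted p = 0.0712 from edgeR) and was not called. The ratio of *H2-DMb2* to *H2-DMb1* counts was 8.87 in B cells and 0.0520 in the Kupffer clusters. Of the 50-base windows in *H2-DMb1* transcripts 22.7% also occur in *H2-DMb2*, so reads from these windows could have been left out or misplaced and both levels are uncertain. The same holds for 8.43% of windows in *H2-DMa*, shared with its neighbour *Brd2*, and 1.46% in *Ciita*, shared with *Dexi*.

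The B cells had 1 sum, so their own spread was not measured, and the tests assume that it equals that between the male and female sums of the other clusters. All 4 tested companions of the class II family were called higher in B cells than in Kupffer cells, and with the pool as a block *H2-Oa* alone remained called. *H2-Oa* and *H2-Ob*, which encode the H2-DO dimer that restrains H2-DM, were at 706 and 1658 CPM in B cells. Over the 7 Kupffer sums *H2-Oa* ran from 0 to 22.1 CPM, with 2 sums at 0, and *H2-Ob* from 0 to 276 CPM, with 1 at 0. *H2-Eb2* was at 102 CPM in B cells and from 0 to 0.534 CPM in the Kupffer sums. Adjusted p values in edgeR were 2.14e-04 for *H2-Oa*, 5.43e-04 for *H2-Ob* and 0.0205 for *H2-Eb2*, and 0.0450, 0.536 and 0.626 with the block. No fold change is given for these 3 genes, since the fitted value depends on the Kupffer sums at 0. *H2-Oa* was at 175 CPM in #i2c and 270 CPM in #i7c, called higher without the block (adjusted p of 0.00547 and 0.00142 in edgeR) and not with it (0.370 and 0.160). Over all genes the block left 36 called higher in B cells, 0 in #i2c and 24 in #i7c, in place of 674, 437 and 473.

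Of 9 antigen processing genes 4 were called lower in B cells, where 0.803% of all genes were called lower, none was called higher and 5 were not called. The 4 genes, all endosomal proteases, were also called with the block. *Ctsb* (cathepsin B) was at 195 CPM in B cells and from 4472 to 7350 CPM in the 7 Kupffer sums, *Ctsd* at 174 against 1211 to 4258 CPM, *Lgmn* at 263 against 2182 to 4079 CPM and *Ctsl* at 12.3 against 229 to 844 CPM. In #i7c, *Lgmn* (52.0 CPM), *Ctsd* (629 CPM) and *Ctsb* (2599 CPM) were lower than in Kupffer cells with and without the block. *Cd86*, which encodes a costimulatory ligand, was at 0.929 CPM in #i7c against 249.8 to 553 CPM, and was called lower with a log2 fold change of -8.89 (SE 2.31, adjusted p = 0.00751 from edgeR). *Irf8* was higher in #i7c, at 3427 against 221 to 1297 CPM (2.53, SE 0.69, adjusted p = 0.0121 from edgeR). None of the 12 transcription genes was called in B cells, where *Pdcd1lg2* (PD-L2) was at 73.4 CPM against 0 to 12.5 CPM, with 4 of 7 Kupffer sums at 0, and was called without the block (adjusted p = 0.0397 in edgeR) and not with it (0.392).

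Single immune cells varied widely around these sums. Among 469 Kupffer cells *Cd74* ran from 92.4 to 14089 CPM with quartiles at 1983 and 4402 CPM, and *H2-Ab1* from 0 to 8306 CPM with quartiles at 1180 and 2990 CPM. B cells were narrower, with quartiles of 5055 and 7217 CPM for *Cd74* and 3196 and 4712 CPM for *H2-Ab1*. In #i2c the quartiles of *H2-Aa* lay at 164 and 4373 CPM, so this cluster joined cells with little and cells with much class II RNA. In cluster #i9c, labelled Cont in the annotation, *H2-DMa* was at 119 and *H2-DMb1* at 67.8 CPM, below every other immune cluster over both pools, while *Cd74* was at 2378 CPM.

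Among the 8 endothelial clusters the highest levels of both chains of I-A, of *H2-Eb1*, *H2-DMa*, *H2-DMb1* and *Cd74* over both pools were those of #e4, 22 cells labelled as lymphatic endothelium (LEC). Their male and female pools had 276 and 456 CPM of *H2-Ab1*, against 10.97 to 130 CPM and 8.05 to 148 CPM in the male and female pools of the other 7 clusters. *Cd74* was at 673 and 551 CPM, against 36.4 to 226 CPM and 0.976 to 321 CPM. For both genes the pools of #e4 lay above all others. In the male pool all 1078 counts of *Cd74* came from 4 cells that also had Kupffer or B cell marker counts, and the part of those cells in the level was not tested. *H2-Aa* was at 69.2 and 340 CPM, *H2-Eb1* at 154 and 225 CPM, *H2-DMa* at 4.99 and 87.4 CPM and *H2-DMb1* at 1.87 and 88.8 CPM. For *H2-Aa*, *H2-DMa* and *H2-DMb1* the male pool of #e4 lay within the range of the other clusters. *Ciita* was at 0.624 and 0 CPM in #e4, with 1 count in 22 cells.

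Of 56 contrasts of a gene in an endothelial cluster with the mean of the other 7 clusters, 6 were called, all higher. In #e4, where 4.92% of all genes were called higher, these were *H2-Ab1* (log2 fold change 3.12, SE 0.56, adjusted p = 0.00251), *Cd74* (3.22, SE 0.80, adjusted p = 0.0212), *H2-Aa* (2.76, SE 0.70, adjusted p = 0.0245), *H2-Eb1* (2.93, SE 0.75, adjusted p = 0.0257) and *H2-DMb1* (4.56, SE 1.11, adjusted p = 0.0192) by edgeR. *H2-DMa* was at 3.07 (SE 1.11, adjusted p = 0.117 from edgeR) and *Ciita* at -2.31 (SE 2.40), neither called, though DESeq2 called *H2-DMa* (3.45, SE 1.15, adjusted p = 0.0182). With the pool as a block, *H2-Ab1* (3.11), *H2-Eb1* (3.02) and *Cd74* (3.36) remained called in #e4. With sums per plate #e4 had 1 sum, of 12 female cells. The call of *H2-DMb1* alone in that fit thus rests on the spread of the other clusters. Without the 1 cell that held the most *H2-Aa*, a setting chosen after the values were seen, *H2-Ab1* alone remained called (log2 fold change 2.70, SE 0.59, adjusted p = 0.00997 from edgeR). *Cd74* (2.82, SE 0.84, adjusted p = 0.0551), *H2-DMb1* (3.02, SE 1.16, adjusted p = 0.139), *H2-Eb1* (1.91, SE 0.90, adjusted p = 0.237) and *H2-Aa* (1.197, SE 0.81, adjusted p = 0.437) were then not called by edgeR. The median log2 fold change in #e4 was 3.07 over the 7 genes and -0.42 over all genes.

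**Figure D3:**
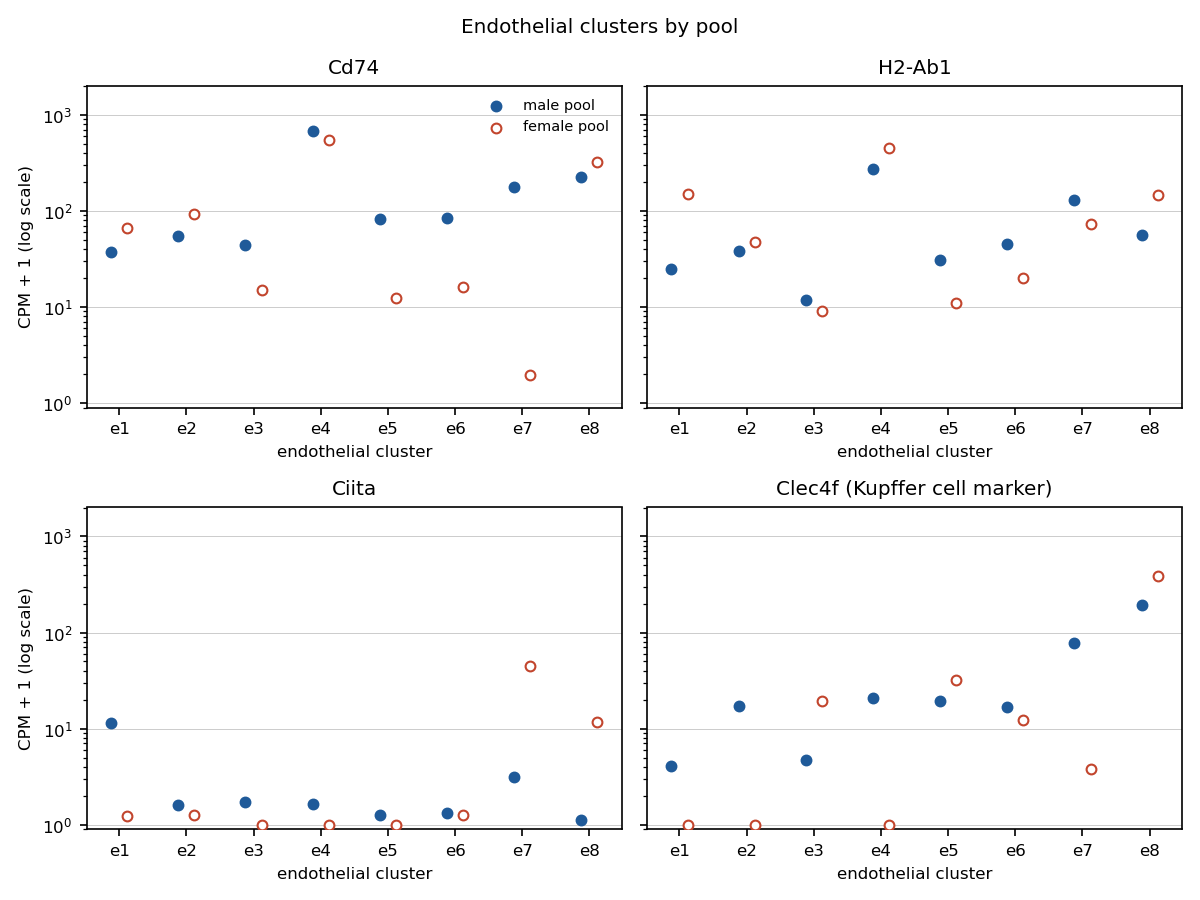
Level of *Cd74*, *H2-Ab1*, *Ciita* and the Kupffer gene *Clec4f* (CPM + 1, log scale) in the 8 endothelial clusters, with 1 point per pool (filled, male; open, female). *Cd74* and *H2-Ab1* are highest in both pools of #e4, and *Clec4f* is highest in #e8, at 327 CPM over both pools against 6.17 CPM in #e4.

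The level in #e4 came from few of its cells. The 5 cells with at least 500 CPM of *Cd74* held 92.0% of the *Cd74* and 62.6% of the *H2-Ab1* counts of the cluster, and 11 of 22 cells had no count of *Cd74*. The cell with the most *Cd74* had 2635 CPM of it, with 2184 CPM of *H2-Aa*, 1737 CPM of *H2-Ab1*, 1561 CPM of *H2-Eb1* and 671 CPM of *H2-DMa*. That cell had *Mmrn1*, a lymphatic gene, at 1028 CPM, no count of *Prox1*, the lymphatic transcription factor gene, and none of *Ptprc* (CD45) or of any Kupffer or B cell marker. The second and the fifth cell, also without *Ptprc*, Kupffer or B cell marker counts, had *Cd74* at 2339 and 789 CPM, *Mmrn1* at 7942 and 5289 CPM and *Prox1* at 25.9 and 879.6 CPM. The third cell, with *Cd74* at 2203 and *H2-Ab1* at 1522 CPM, had *Mmrn1* at 5527 and *Prox1* at 3391 CPM beside 116 counts of Kupffer and 43 of B cell markers. The fourth cell, with *Cd74* at 1543 CPM, had *Cd79a* at 651 CPM, 994 counts of B cell markers and no count of *Mmrn1* or *Prox1*. Without the first cell *H2-Aa* of the cluster was at 66.3 in place of 256 CPM, *H2-DMa* at 1.91 in place of 61.9 CPM, *H2-Eb1* at 69.3 in place of 203 CPM, *H2-DMb1* at 19.7 in place of 61.9 CPM, *H2-Ab1* at 268 in place of 400 CPM and *Cd74* at 387 in place of 589 CPM. The 12 cells of #e4 without a Kupffer or B cell marker count were split by pool, with *Cd74* at 943 and *H2-Ab1* at 780 CPM over the 8 female cells and no count of either in the 4 male cells. On plates with at most 4 immune cells, which held 19 of the 22 cells, *Cd74* was at 546 CPM and *Clec4f* at 0. The fourth cell, with its 994 counts of B cell markers, was among these 19 cells.

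**Figure D4:**
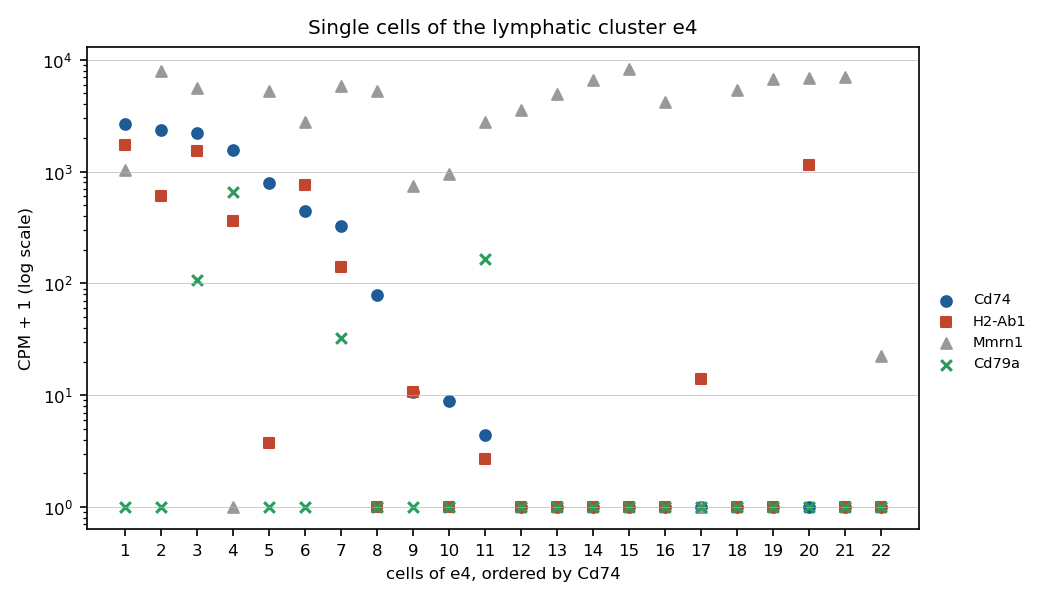
*Cd74*, *H2-Ab1*, the lymphatic gene *Mmrn1* and the B cell gene *Cd79a* (CPM + 1, log scale) in each of the 22 cells of #e4, ordered by *Cd74*. Of the 22 cells, 5 lie above 500 CPM of *Cd74*, and the cell with the most *Cd79a* has no count of *Mmrn1*.

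*Ciita* was called in #e7, a cluster labelled as central vein endothelium, with a log2 fold change of 5.47 (SE 1.26, adjusted p = 0.0424 from edgeR), where 1.2% of all genes were called higher. With the pool as a block, and with sums per plate, *Ciita* was not called there. The male pool had 2.12 and the female pool 44.1 CPM of it. In the female pool, 1 cell with 720 counts (3126 CPM) held 96.3% of the *Ciita* counts of the cluster, and this cell had *Cd74* at 8.68 CPM and no count of *H2-Ab1*. Without it *Ciita* was at 1.001 CPM in #e7 and was not called (log2 fold change 1.0025, SE 1.52, adjusted p = 0.896 from edgeR). Similarly, 1 cell held 94.8% of the *Ciita* counts of #e1. *Cd74* of #e7 was at 178 (male) and 0.976 CPM (female), and at 211 and 0.987 CPM on plates with more than and at most 4 immune cells. *Irf4*, a transcription factor of activated lymphocytes, was the 1 of 12 class II transcription genes called in #e7 (log2 fold change 6.90, SE 1.51, adjusted p = 0.0365 from edgeR). In at least 1 pool its CPM in #e7 did not exceed the mean CPM of the other endothelial clusters.

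In the other endothelial clusters edgeR called none of the 7 genes, beside 0.772% of all genes over #e1, e2, e3, e5, e6 and e8 together. The sinusoidal cluster #e8 had the second highest *Cd74*, at 226 and 321 CPM, with a log2 fold change of 1.76 (SE 0.87, adjusted p = 0.479 from edgeR), and was called without the filter on low counts. *H2-Aa* was at 80.5 and 97.8 CPM there, *H2-Ab1* at 55.3 and 146 CPM, *H2-Eb1* at 65.7 and 104 CPM, *H2-DMa* at 25.8 and 11.1 CPM, *H2-DMb1* at 16.2 and 6.71 CPM and *Ciita* at 0.128 and 10.8 CPM. The cluster also had *Clec4f* at 327 CPM and all 10 Kupffer markers above 10 CPM. Its ratio of *H2-Ab1* to *Clec4f* was 0.357, and that of the Kupffer clusters was 0.378. On a plate with 93 immune cells, 52 cells of #e8 had *H2-Ab1* at 225, *Cd74* at 588 and *Clec4f* at 583 CPM. The 80 Kupffer cells of that plate had *H2-Ab1* at 3049, *Cd74* at 5311 and *Clec4f* at 8207 CPM. On a plate without any immune cells, 63 cells of #e8 had *H2-Ab1* and *Clec4f* each at 0.130 CPM. The part of Kupffer cell RNA in the levels of #e8 was not tested. None of the 26 cells of #e8 with at least 500 CPM of *Cd74* was free of *Ptprc*, Kupffer and B cell marker counts. *Cd86* was called higher in #e8, at 5.11 and 13.97 CPM (log2 fold change 6.12, SE 1.25, adjusted p = 0.0476 from edgeR).

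The central vein cluster #e1 had *H2-Ab1* at 23.9 (male) and 148 CPM (female), with *Clec4f* at 1.71 CPM over both. On plates with at most 4 immune cells its 130 cells had *H2-Ab1* at 86.2 and *Clec4f* at 0.0223 CPM, and 30.3% of all its cells had a count of *H2-Ab1*. Over all plates 5 cells of #e1 held 55.4% of these counts. *H2-Ab1* was at 50.2 CPM in its 87 cells without a Kupffer or B cell marker count and at 115 CPM in the other 65. A pair of companions was higher there and in #e7. *Ctsh* (cathepsin H) was at 633 and 918 CPM in #e1 (log2 fold change 3.57, SE 0.49, adjusted p = 0.00111) and at 276 and 374 CPM in #e7 (2.48, SE 0.51, adjusted p = 0.0239), by edgeR. *Icosl*, a ligand of the T cell costimulator ICOS, was at 47.0 and 53.4 CPM in #e1 (4.998, SE 1.01, adjusted p = 0.0175) and at 41.0 and 27.8 CPM in #e7 (4.69, SE 1.01, adjusted p = 0.0305), by edgeR. The sinusoidal cluster #e3 had the lowest *H2-Ab1*, at 10.97 and 8.05 CPM, with a log2 fold change of -2.90 (SE 0.90, adjusted p = 0.134 from edgeR). DESeq2 called it lower (-2.68, SE 0.72, adjusted p = 0.00891). *Ctsh* was lower in #e3, at 7.02 and 5.37 CPM. In #e4 the class I transporter gene *Tap1* was higher, at 573 and 368 CPM (2.08, SE 0.46, adjusted p = 0.011 from edgeR). *H2-Ob* was the 1 of 3 tested other class II genes called in #e4 (5.25, SE 1.36, adjusted p = 0.0268 from edgeR), and the cell with the B cell gene *Cd79a* held *H2-Ob* at 748 CPM.

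Outside the immune class the highest levels over a cluster of more than 100 cells were those of the cholangiocytes (#p2, 194 cells), the bile duct epithelium. This cluster was picked out after its values were seen, and all its comparisons are descriptions without a test. Of its cells 110 were on 1 male plate, which held 84.8% of its *Cd74*, 87.01% of its *H2-Ab1* and 97.2% of its *Ciita* counts. Its male and female pools had 619 and 715 CPM of *Cd74*, *H2-Ab1* at 375 and 218 CPM, *H2-Aa* at 266 and 82.2 CPM, *H2-Eb1* at 240 and 131 CPM, *H2-DMb1* at 79.1 and 61.2 CPM, *H2-DMa* at 55.8 and 23.2 CPM and *Ciita* at 31.3 and 8.01 CPM. The hepatocyte clusters #p4 and #p5, male cells alone, had *Cd74* at 35.7 and 44.7 CPM, *H2-Ab1* at 23.7 and 22.04 CPM, *H2-Aa* at 16.4 and 26.3 CPM, *H2-Eb1* at 17.2 and 21.8 CPM, *H2-DMa* at 4.10 and 1.98 CPM, *H2-DMb1* at 0.455 and 1.25 CPM and *Ciita* at 0.228 and 0.209 CPM. The pools of #p2 thus lay above these clusters for all 7 genes, but each pool rested on 1 plate. Of the 37 female cells 36 were on a plate with 93 immune cells, and over the female pool *Clec4f* was at 178 CPM. The 47 male cells on other plates than the largest had *Cd74* at 109.9 CPM, *H2-Ab1* at 112 CPM, *H2-Aa* at 27.9 CPM, *H2-Eb1* at 28.9 CPM, *H2-DMb1* at 4.63 CPM, *H2-DMa* at 3.40 CPM and no count of *Ciita*, so that *H2-DMa* and *Ciita* no longer lay above both clusters. Over its cells *Cd74* was counted in 92.8% (interval 88.2% to 96.0%), *H2-Ab1* in 84.5% (interval 78.7% to 89.3%) and *Ciita* in 14.4% (interval 9.81% to 20.2%). At least 5 genes were counted in 56.2% of #p2 cells, against 16.95% in #p4 and 17.5% in #p5. Over cells the median of *Cd74* was 433 CPM with quartiles of 98.2 and 1010 CPM, and the 5 cells with the most held 12.9% of its counts. On the largest plate the median was 738 CPM, and over the 84 cells on the others it was 209 CPM. For *Ciita* 5 cells held 90.3% of the counts.

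The plates of #p2 differed in both class II and Kupffer cell genes. On 1 plate with 110 cells of #p2 and 1 immune cell, *Cd74* was at 785, *H2-Ab1* at 460 and *Ciita* at 41.5 CPM, while *Clec4f* was at 2.83 CPM and *C1qa* at 0. On the female plate, with 36 cells of #p2 and 93 immune cells, *Cd74* was at 724, *H2-Ab1* at 221 and *Clec4f* at 180 CPM. On 2 more male plates, with 21 cells of #p2 beside 70 immune cells and 9 beside 10, *Cd74* was at 179 and 155 CPM and *Clec4f* at 26.8 and 76.0 CPM. Of the 102 cells of #p2 without a Kupffer or B cell marker count 89 were on the largest plate, with *Cd74* at 807 and *H2-Ab1* at 479.7 CPM, and the 13 on the others had *Cd74* at 19.7 and *H2-Ab1* at 40.9 CPM. All 53 of these cells with at least 500 CPM of *Cd74* were on the largest plate. Since that plate is not repeated, what belongs to the cholangiocytes and what to the plate cannot be told apart. The summed B cell markers of #p2 were at 0.976 CPM, with *Pax5* and *Fcmr* at 0, and the summed Kupffer markers at 110 CPM. *H2-DMb2* was at 0.320 CPM, a ratio of 0.00414 to *H2-DMb1*. On a pair of small plates *Cd74* was at 0 over 7 cells and 72.0 CPM over 8 cells, with *Clec4f* at 0.547 and 0 CPM. The plates with *Clec4f* at 2.83 CPM or less thus held both the highest and the lowest *Cd74* of #p2.

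**Figure D5:**
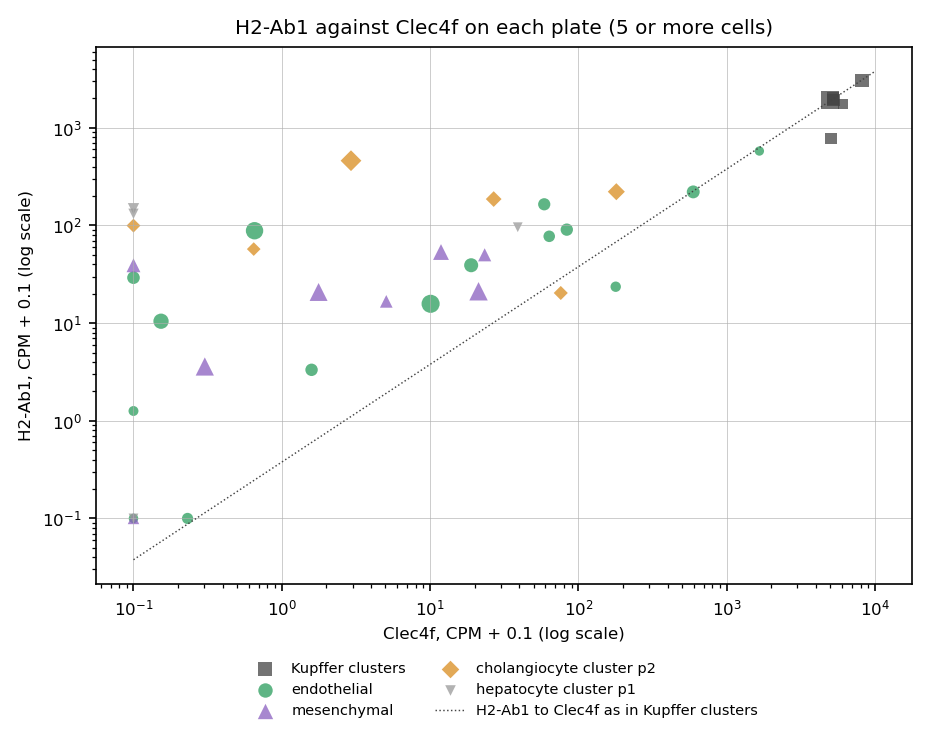
*H2-Ab1* against *Clec4f* (CPM + 0.1, both axes log scale) on each plate with 5 or more cells of a population, with larger symbols for more cells. The dotted line is the ratio of the Kupffer clusters (0.378), and the largest plate of #p2 lies far above it, at 460 CPM of *H2-Ab1* and 2.83 CPM of *Clec4f*.

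The remaining hepatocyte clusters had few bright cells. Cluster #p1 (64 cells) had *Cd74* at 217 CPM, of which 6 cells with at least 500 CPM held 78.9%, and 5 of these had at least 100 CPM of Kupffer markers. In #p3 (23 cells) *Cd74* was at 114 CPM, with 98.4% of its counts in 5 cells. *Ciita* had no count in either, which allows a share of cells with a count of up to 4.69% in #p1 and 13.0% in #p3 (3 counts over the cells). Its absence is not shown by this.

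Levels were low in the 10 mesenchymal clusters, with *Cd74* from 12.7 CPM (#m10) to 75.6 CPM (#m5) and *H2-Ab1* from 3.48 CPM (#m7) to 47.2 CPM (#m5). *H2-Aa* ran from 4.13 to 44.0 CPM, *H2-Eb1* from 2.98 to 36.0 CPM, *H2-DMa* from 0.0486 to 11.8 CPM, *H2-DMb1* from 0.0486 to 7.79 CPM and *Ciita* from 0 to 8.51 CPM. The portal fibroblast cluster #m8 (156 cells) counted none of the 7 genes in 87.8% of its cells. In the whole class 26 of 1337 cells had at least 500 CPM of *Cd74*, and these held 65.4% of its *Cd74* counts. Of the 26 cells, 10 had at least 100 CPM of Kupffer markers, 4 had as much of B cell markers and 6 had no count of *Ptprc* or of either list. Their part in the level of the class was not tested.

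Across the 30 multilevel clusters of all classes, 6 of the 7 genes kept close to one another. Pearson's r of a gene with the mean of the standardized log2(CPM + 1) profiles of the other 6 ran from 0.940 (*H2-DMb1*) to 0.980 (*H2-Aa*) for these, and was 0.855 for *Ciita*. For pairs of the 7 genes r ran from 0.807 to 0.983. Among 16593 genes those outside the list most similar to the mean of all 7 profiles were *Mir5107* (0.979), *Tlr1* (0.954), *Dennd1c* (0.953), *Ncf1* (0.947), *Bank1* (0.945), *Rasgrp1* (0.944), *Cd53* (0.942) and *Epsti1* (0.941). *Mir5107* lies within *Cd74* and may have been counted from the same reads. The points share plates and pools, and 7 of the 30 clusters are immune, so these values describe how far the genes separate immune from other clusters. In #p2, *Ncf1* was at 0.624, *Tlr1* and *Cd53* at 1.62, *Bank1* at 4.08, *Rasgrp1* at 11.6, *Dennd1c* at 14.02, *Epsti1* at 16.2 and *Mir5107* at 37.4 CPM.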

How the data were processed

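Single liver cells were sorted by endothelial (CD31, VE-cadherin or Cldn5-GFP), Kupffer (CD68), cholangiocyte (EPCAM) or mesenchymal markers, while hepatocytes were not selected. Libraries followed the Smart-seq2 protocol, and reads were single and 50 bases long. The deposited table holds counts of reads per gene for cells that passed the filters of the authors. The labels name GRCm38/mm10, Bowtie, Bowtie2, featureCounts and Subread, without versions. The deposited clusters and their names were used.

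The 92 spike-ins were left out. Counts were summed per class or cluster and pool (at least 5 cells) and tested with edgeR 4.0.16 (TMM, filterByExpr, quasi-likelihood; R 4.3.3), adjusting over all genes by Benjamini-Hochberg. Comparisons were also refitted with DESeq2 1.42.0, without the filter on low counts, with cells thinned to 50000 counts, with sums per plate, with a replicate block and, for the classes, without each pool. The scripts were tested on simulated data. Total counts ran from 47063 to 1128421 per cell, and intervals are exact binomial (scipy 1.17.1). The result of 1 companion gene is not reported here. The members and companion lists were chosen with earlier results of these data known. All 7 members were tested in every comparison and are named with up to 5 called genes per companion list by size of change and the 8 non-members most alike in pattern.

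Same-numbered pools of clusters within a class come from the same sample, whereas those of different classes share only the sex. Correlations of their deviations from the group means ran from 0.0864 to 0.110 between classes, from -0.0474 to 0.153 between immune clusters and from -0.0219 to 0.0999 between endothelial clusters.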

Additional observations from a re-analysis of the deposited data

Results flagged for a closer look

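In the endothelial clusters 6 differences had opposite signs in the male and female pools with a size of at least 1 in each, and none of these contrasts between pools was tested. Values are differences of log2(CPM + 1) from the mean of the other 7 clusters in the same pool. In the central vein cluster #e1, *H2-Aa* differed by -1.078 in the male and 1.655 in the female pool, *H2-Ab1* by -1.115 and 1.675, and *H2-DMa* by -1.984 and 1.483. *Ciita* of #e1 differed by 2.853 in the male and -1.098 in the female pool, and 1 cell held 94.8% of its counts. *H2-DMa* of the sinusoidal cluster #e5 differed by 1.242 in the male and -1.996 in the female pool. *Cd74* of #e2, labelled as portal vein, differed by -1.094 and 1.397. Every plate held cells of 1 sex, so plate and sex cannot be told apart.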

How the results depend on the processing

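The 7 calls in immune cells held under every alternative for the 4 classes except that 6 to 7 were called when 1 pool was left out. For endothelial against mesenchymal and parenchymal cells the 0 calls became 1 (*H2-DMb1*, lower) with DESeq2, without the filter, with thinned cells and with the replicate block, and ranged from 0 to 0 with 1 pool left out. Among immune clusters the 0 of 28 calls became 4 with sums per plate and 3 with #i5c and #i9c counted as Kupffer cells. Among endothelial clusters the 6 of 56 calls became 1 with sums per plate, 2 without the cell of #e4 with the most *H2-Aa* counts, 3 with the replicate block (pairing by pool), 8 with DESeq2 (*H2-DMa* in #e4 and *H2-Ab1*, lower, in #e3 added) and 7 without the filter (*Cd74* in #e8 added), and 0 of 7 genes were called for #e3, e5, e6, e7 and e8 together against #e1, e2 and e4. Of the 8 genes most alike in pattern, 5 were shared with a pseudocount of 10 CPM. Of 966 log2 fold changes under alternatives, 934 kept their side of the threshold, 60 of them uncalled with the opposite sign, 14 became called and 18 lost the call. Of 56 class levels under another way of averaging, 11 moved by more than the spread between pools. The immune clusters with at least 10 cells, and both sets of clusters without a pool, could not be fitted, since no residual degrees of freedom remained. In simulated data 8.79% of genes changed by 4 on the log2 scale were recovered for #i6c against Kupffer cells, 63.0% for #e4 and 93.6% for immune cells, so the immune cluster test could miss large differences.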
